A study of Mus musculus with 15 samples.

Results

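The BCL2 family decides whether the outer membrane of the mitochondrion is breached during apoptosis. The 10 members described here were chosen by gene symbol from the 46078 genes listed in the batch 1 count table and the 13063 named genes of the batch 2 count table, and every one of them was found in both and passed the filter on low counts. Pro-survival members (Bcl2; Bcl2l1, which encodes BCL-XL; Mcl1) hold the effector proteins BAX and BAK in check. The effectors (Bax, Bak1) form the pores that release cytochrome c, and the BH3-only members (Bbc3 or PUMA, Pmaip1 or NOXA, Bcl2l11 or BIM, Bid, Bmf) block the pro-survival proteins or trigger the effectors. Bim is known as a target of FOXO and stress pathways, and Puma, Noxa and Bax are known as targets of p53. In skeletal muscle the family is known to take part in the loss and survival of satellite cells, the resident stem cells of the tissue.

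Satellite cells from mouse hindlimb muscle were cultured for 24 hours in F10 medium with 10% horse serum and one of 3 additions. Batch 1 held 3 libraries with 0.05 mM adenosine and 3 with DMSO. Batch 2, from C57BL/6J mice per the labels, held 3 libraries each of 0.1 mM adenosine, 0.25 mM adenosine monophosphate (AMP, the 5′ phosphate of adenosine) and DMSO; no strain was given in the labels of batch 1. No genetic change was labelled in any group. Dose and batch changed together for adenosine, AMP and adenosine were given at different doses, and the labels leave unsaid if libraries of a group are separate animals or separate cultures. The p-values therefore reflect library-to-library spread alone, and this could be technical.

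Depth ranged over 14683346 to 20799588 counts per library in batch 1, and over 11107450 to 14201933 in batch 2. All 7 satellite cell and myoblast markers were detected in every group. Their summed level was lower in the treated libraries, at 2140 to 2921 CPM (counts scaled to the library total, for these marker sums without TMM factors) with adenosine, against 5460 to 5623 CPM with DMSO in batch 1. In batch 2 it was 1828 to 2372 CPM with adenosine and 2292 to 2851 CPM with AMP, against 4452 to 5012 CPM with DMSO. Des, Vcam1, Myod1, Itga7 and Cdh15 fell in all 3 comparisons. Pax7, which marks satellite cells, had a different pattern. On the TMM-scaled CPM used for single genes it averaged 56.8 with adenosine, against 63.3 with DMSO in batch 1 (log2 fold change -0.16, edgeR adjusted p = 0.367). In batch 2 it averaged 60.8 ± 1.66 with adenosine and 73.1 ± 6.56 with AMP, against 47.5 ± 3.88 with DMSO (SD, n = 3 each), and it rose by 0.35 (edgeR adjusted p = 0.00292) and 0.62 (adjusted p = 2.5e-05). Leukocyte markers were rare but higher in treated libraries, with sums of 11.7 to 18.1 CPM with adenosine, against 1.2 to 2.96 CPM with DMSO in batch 1, where Cd3e and Tyrobp were at 0 in both groups. For the 2 of 8 leukocyte markers listed in batch 2, the sums were 12.1 to 15.7 CPM with adenosine and 12.3 to 16.3 CPM with AMP, against 1.65 to 3.31 CPM with DMSO. Csf1r, the lesser of the 2, had 3, 1 and 2 counts with DMSO there and was listed through the treated libraries. Cd68 alone averaged 10.9 ± 0.947 TMM-scaled CPM with adenosine and 11.7 ± 1.21 with AMP, against 2.83 ± 0.889 with DMSO. Endothelial markers summed to 18.5 to 23.9 CPM with adenosine, against 5.1 to 6.85 CPM with DMSO in batch 1. The 2 of 5 listed in batch 2 summed to 9.15 to 10.3 CPM with adenosine and 9.24 to 12.7 CPM with AMP, against 2 to 5.26 CPM with DMSO. Of these, Pecam1 had 10, 4 and 6 counts with DMSO and was listed through the treated libraries. Most of the leukocyte sum was Cd68 (12.1 TMM-scaled CPM with adenosine in batch 1) and most of the endothelial sum was Tek (16.8). Myocyte markers summed to 2.01 to 17.3 CPM with adenosine, against 22.9 to 58.9 CPM with DMSO in batch 1, where 2 of 5 tested fell; in batch 2 the groups overlapped and none of 4 passed. Of 3 tested pericyte and smooth muscle markers 2 fell in batch 1, and the 1 tested in batch 2 fell with both compounds. That marker, Cspg4, had 20, 26 and 23 counts with DMSO in batch 2 and was listed through those libraries. Of 2 tested fibro-adipogenic and 2 tested glial markers none passed in batch 1. In batch 2 the 1 fibro-adipogenic marker tested, Dcn, and 1 of 2 glial markers rose with both compounds. Dcn had 2, 10 and 11 counts with DMSO there and was listed through the treated libraries. The part of these cell type markers in the differences below was not tested. In such bulk libraries fewer cells of a type and less RNA per cell cannot be told apart.

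The starts of 3 member genes are shown because the results turn on them: Bcl2l11 and Bmf rose most among the members in batch 2, and Bax was the member with the highest level in every group. For Bmf that rise is a description, since it passed the count filters there only through the treated libraries. The sequences are the 250 bases before the transcription start in RefSeq (build GRCm38.p6), read on the strand of the gene. RefSeq lists 2 starts for Bcl2l11 and 3 for Bmf, and the one nearest the 5′ end of the deposited gene is used. Capitals mark the FOXO site in Bcl2l11, the CRE half-sites (the cAMP response element is bound by CREB and ATF factors) in Bmf and the p53 half-site in Bax.
Bcl2l11, chr2:128125788-128126037, plus strand: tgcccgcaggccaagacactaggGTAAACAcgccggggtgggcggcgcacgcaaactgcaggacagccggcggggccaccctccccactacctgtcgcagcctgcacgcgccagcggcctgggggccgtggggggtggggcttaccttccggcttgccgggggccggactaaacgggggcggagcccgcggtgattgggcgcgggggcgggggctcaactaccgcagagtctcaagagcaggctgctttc
Bmf, chr2:118549687-118549936, minus strand: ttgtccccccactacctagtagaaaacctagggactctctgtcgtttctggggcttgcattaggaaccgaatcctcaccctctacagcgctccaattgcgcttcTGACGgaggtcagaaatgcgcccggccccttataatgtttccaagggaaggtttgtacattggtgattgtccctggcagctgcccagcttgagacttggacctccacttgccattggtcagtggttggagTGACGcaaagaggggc
Bax, chr7:45466899-45467148, minus strand: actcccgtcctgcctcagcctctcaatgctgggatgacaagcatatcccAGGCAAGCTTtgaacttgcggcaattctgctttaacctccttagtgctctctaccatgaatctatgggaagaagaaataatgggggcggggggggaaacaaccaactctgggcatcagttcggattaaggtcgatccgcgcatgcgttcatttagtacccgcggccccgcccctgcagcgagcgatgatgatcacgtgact

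Each window was searched on both strands for the CRE half-site TGACG, the full CRE TGACGTCA (which contains the half-site), the AP-1 site TGANTCA, the FOXO site TGTTTAC, the E-box CACGTG, the CCAAT box CCAAT, the GC box GGGCGG and the p53 half-site. With the base just before the start counted as -1, the FOXO site of Bcl2l11 lay from -227 to -221 on the opposite strand. Bcl2l11 also held a CCAAT box at -57 to -53 and 3 GC boxes. Bmf held CRE half-sites at -146 to -142 and at -16 to -12, and 3 CCAAT boxes. The p53 half-site of Bax lay at -201 to -192, and the gene also held an E-box at -9 to -4 and 2 GC boxes. Of 32851 mouse promoter windows of this length, 3.17% held the FOXO site, 17.8% the CRE half-site and 33.8% the CCAAT box. The E-box was held by 6.02%, the GC box by 32.7% and the p53 half-site by 7.13%. Among the other 6 members with a window, Bcl2 (at -107 to -103) and Bbc3 (at -55 to -51) held a CRE half-site each. GC boxes stood in the windows of Bcl2 (7), Bbc3 (5), Bid (3) and Mcl1 (1). GC content was 72% in the window of Bcl2l11 and 54% in those of Bmf and Bax, beside a median of 52.4% over all windows. A match describes letters in a window and says nothing of binding in these cells.

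The members differed widely in level. On the deposited FPKM scale (fragments scaled to exon length and library, which allows genes of different length to be compared), Bax was highest in all 5 groups, with 667 ± 52 FPKM with adenosine, against 601 ± 135 FPKM with DMSO in batch 1 (SD, n = 3 each). In batch 2 Bax had 398 ± 17.5 FPKM with adenosine and 427 ± 49.5 FPKM with AMP, against 313 ± 15.4 FPKM with DMSO. The other effector, Bak1, was far lower, at 4.52 ± 0.485 FPKM with adenosine, against 5.99 ± 1.15 FPKM with DMSO in batch 1. Bax therefore made up between 98.2% and 99.4% of the sum of Bax and Bak1, called the effector sum here, in each library. That sum leaves out Bok, an effector relative that is not among the members. Bok averaged 16.5 FPKM with adenosine, against 55.9 FPKM with DMSO in batch 1. In batch 2 it averaged 16.1 FPKM with adenosine and 19.8 FPKM with AMP, against 71.4 FPKM with DMSO. Bmf was lowest in all 5 groups by mean FPKM.

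Among the pro-survival members the order differed between batches. In batch 1 Bcl2l1 was above Mcl1 in both groups, at 42.8 ± 2.85 and 28 ± 1.08 FPKM with adenosine, and at 23.7 ± 1.47 and 20.8 ± 0.715 FPKM with DMSO, and in neither group did the 2 genes overlap between libraries. In batch 2 Mcl1 was the higher of the pair, at 49.7 ± 2.51 FPKM against 28.4 ± 2 FPKM for Bcl2l1 with adenosine, and at 39.1 ± 1.9 FPKM against 14 ± 0.233 FPKM with DMSO. With AMP the ranges of Mcl1 (35.4 to 49.5 FPKM) and Bcl2l1 (35.1 to 39.8 FPKM) overlapped. Bcl2 itself stayed at or under 1.91 FPKM in every library. By mean, the BH3-only member Pmaip1 stood below Bid, Bbc3 and the effector Bak1 with DMSO in both batches. With adenosine it stood above all 3 of them. In batch 1 its libraries overlapped those of Bak1 with DMSO and those of Bid with adenosine.

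With 0.05 mM adenosine in batch 1, 4 of the 10 members rose, none fell and 6 did not pass the test (edgeR quasi-likelihood test, Benjamini-Hochberg adjusted p under 0.05 over all genes). Over all 13842 genes tested, 39.2% passed (19.6% higher and 19.5% lower), so a share of 40% of members is close to the background. With 0.1 mM adenosine in batch 2, 7 members rose, 2 fell and 1 did not pass, so 90% of members passed where 69.4% of 13063 genes did (34.9% higher and 34.5% lower). With 0.25 mM AMP, 6 rose, none fell and 4 did not pass, a share of 60% where 65.6% of genes passed (33.7% higher and 31.8% lower). The median log2 fold change of the 10 members was 0.30, 0.58 and 0.85 in these 3 comparisons, beside 0.03, 0.01 and 0.01 over all genes tested. The adenosine and AMP comparisons of batch 2 share their DMSO libraries. Bmf is among the members counted as higher in batch 2, where it passed the count filters only through the treated libraries and so had to differ; without it 6 members rose with adenosine and 5 with AMP. Bcl2l1, Pmaip1 and Bcl2l11 rose in all 3 comparisons. On the TMM-scaled CPM used below for the members, the libraries of the treated group lay wholly on one side of the DMSO libraries for 4 members in batch 1, where 51.4% of all genes did so, for 9 with adenosine in batch 2 (73.6% of all genes) and for 7 with AMP (70.5%). Bmf, which had to differ, is among the 9 and among the 7.

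**Figure D1:**
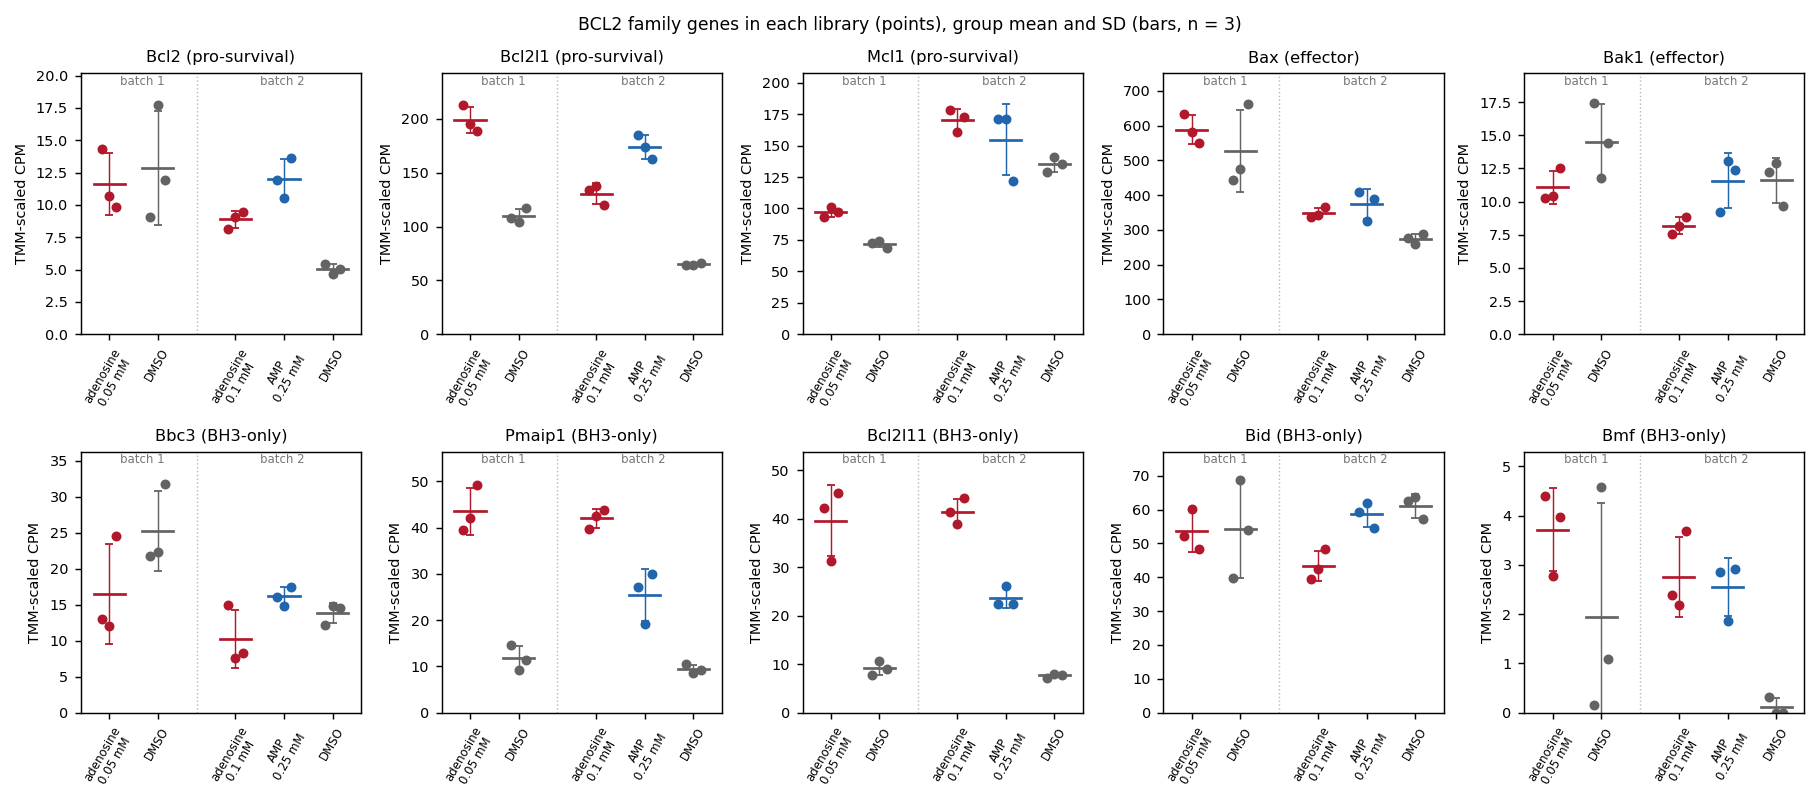
Level of each BCL2 family member in every library, in TMM-scaled CPM on the vertical axis; points are libraries, horizontal bars the group mean and vertical bars the SD (n = 3). Bcl2l1, Pmaip1 and Bcl2l11 lie above DMSO in every treated library of both batches, while the Bid and Bax libraries of batch 1 overlap between adenosine and DMSO.

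Values per library are given as CPM scaled by TMM factors, which correct for differences in library make-up and allow a gene to be compared between groups. Bcl2l1, whose product BCL-XL is a main guard of the outer mitochondrial membrane, had 213, 195 and 189 CPM with adenosine, against 108, 104 and 117 CPM with DMSO in batch 1. Its batch 2 values were 134, 138 and 120 CPM with adenosine and 185, 174 and 163 CPM with AMP, against 64.3, 64.4 and 66.1 CPM with DMSO. No treated library overlapped a DMSO library of its batch. The log2 fold changes were 0.86 ± 0.11 (SE; edgeR adjusted p = 9.21e-05) in batch 1, 1.01 ± 0.08 with adenosine in batch 2 (adjusted p = 1.74e-08) and 1.42 ± 0.08 with AMP (adjusted p = 7.87e-10). Counts were summed per gene, so BCL-XL and the short BCL-XS form were not told apart.

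Mcl1, a short-lived pro-survival protein, had 93.4, 101 and 97.5 CPM with adenosine, against 72.6, 73.8 and 68.9 CPM with DMSO in batch 1. The batch 2 libraries had 178, 161 and 173 CPM with adenosine and 171, 171 and 122 CPM with AMP, against 129, 141 and 135 CPM with DMSO. It rose with adenosine by a log2 fold change of 0.44 ± 0.12 (SE; edgeR adjusted p = 0.00942) in batch 1 and of 0.34 ± 0.11 (adjusted p = 0.00985) in batch 2. With AMP its log2 fold change was 0.20 ± 0.11 (adjusted p = 0.113), and the third AMP library lay below all DMSO libraries. Without that library the value was 0.34 (adjusted p = 0.00114). Scaling by library totals, which put the all-gene median with AMP at 0.279, gave 0.46 and a call (edgeR adjusted p = 0.000335), and with only genes of at least 10 CPM the value was 0.27 and was also called (adjusted p = 0.0395).

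Bcl2, the founding member of the family, passed in batch 2 and not in batch 1, and the difference between the batches itself missed the threshold (edgeR adjusted p = 0.0666). It had 14.3, 10.7 and 9.82 CPM with adenosine, against 9.06, 17.7 and 11.9 CPM with DMSO in batch 1, where the groups overlapped (log2 fold change -0.15 ± 0.28 SE, edgeR adjusted p = 0.703). Batch 2 gave 8.11, 9.07 and 9.45 CPM with adenosine and 11.9, 10.5 and 13.6 CPM with AMP, against 5.44, 4.64 and 5.03 CPM with DMSO. There it rose by 0.81 ± 0.18 with adenosine (adjusted p = 0.000969) and by 1.25 ± 0.18 with AMP (adjusted p = 2.06e-05), with no overlap with DMSO. Of its exon bases, 6.09% are shared with D630008O14Rik on the opposite strand, and the batch 1 counting was unstranded.

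Bax, the most abundant effector, had 634, 581 and 550 CPM with adenosine, against 443, 475 and 662 CPM with DMSO in batch 1. The third DMSO library lay above every adenosine library. The log2 fold change was 0.16 ± 0.15 (SE; edgeR adjusted p = 0.417), and without that library it was 0.35 (adjusted p = 0.0423). In batch 2 Bax had 336, 343 and 365 CPM with adenosine and 410, 326 and 389 CPM with AMP, against 277, 260 and 288 CPM with DMSO. It rose by 0.34 ± 0.08 (adjusted p = 0.00195) with adenosine and by 0.45 ± 0.08 (adjusted p = 0.000221) with AMP, and neither group overlapped DMSO.

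Bak1, the second effector, had 10.3, 10.4 and 12.5 CPM with adenosine, against 17.4, 11.8 and 14.4 CPM with DMSO in batch 1 (log2 fold change -0.40 ± 0.23 SE, edgeR adjusted p = 0.189). For batch 2 the values were 7.55, 8.16 and 8.83 CPM with adenosine and 9.25, 13.1 and 12.4 CPM with AMP, against 12.2, 12.9 and 9.7 CPM with DMSO. It fell by 0.50 ± 0.18 with adenosine (adjusted p = 0.0221), and AMP libraries overlapped DMSO (0.00, 95% interval -0.38 to 0.38, adjusted p = 0.995). The fall with adenosine was not called without adenosine library 1 (-0.45), without DMSO library 1 (-0.46), without DMSO library 2 (-0.42) or with library totals (-0.19, where the median of all genes lay at 0.323). Its exons share 14.8% of their bases with Ggnbp1 on the opposite strand.

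In batch 2 the BH3-only members split into 3 that rose with both compounds and 2 that rose with neither. Among the 3 is Bmf, which passed the count filters there only through the treated libraries and so had to differ. Bcl2l11, which encodes the broadly acting activator BIM, had 42.2, 31.3 and 45.3 CPM with adenosine, against 7.68, 10.6 and 9.03 CPM with DMSO in batch 1. In batch 2 it had 41.3, 38.8 and 44.2 CPM with adenosine and 22.4, 26 and 22.3 CPM with AMP, against 7.18, 7.96 and 7.78 CPM with DMSO. The lowest treated library of each batch lay above the highest DMSO library. The fold was 4.37 in batch 1 (log2 2.13 ± 0.21 SE, edgeR adjusted p = 9.78e-06), 5.42 with adenosine in batch 2 (2.44 ± 0.13, adjusted p = 3.04e-10) and 3.09 with AMP (1.63 ± 0.13, adjusted p = 3.68e-08). The BIM isoforms EL, L and S come from 1 gene and were not told apart.

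Pmaip1, encoding NOXA, which binds MCL1 above all, had 39.5, 42 and 49.3 CPM with adenosine, against 14.6, 9.28 and 11.3 CPM with DMSO in batch 1. Its batch 2 values were 39.8, 42.5 and 43.8 CPM with adenosine and 27.2, 19.1 and 29.9 CPM with AMP, against 10.4, 8.47 and 9.24 CPM with DMSO. No group overlapped its DMSO libraries. Its log2 fold changes were 1.89 ± 0.20 (SE; edgeR adjusted p = 1.82e-05), 2.16 ± 0.16 (adjusted p = 1.04e-08) and 1.43 ± 0.16 (adjusted p = 1.4e-06) for adenosine in batch 1, adenosine in batch 2 and AMP.

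Bmf, a BH3-only protein that is held on the cytoskeleton and freed by stress, had the fewest counts of the members and, against DMSO in batch 2, the largest fold change. In batch 2 there were 30, 31 and 48 counts with adenosine and 32, 22 and 38 counts with AMP, against 4, 0 and 0 counts with DMSO. Per library total, the summed counts were 28.4 times those of DMSO with adenosine (95% exact interval 10.8 to 106, counting error only) and 25.7 times with AMP (9.71 to 96.4). The intervals pool the libraries of a group and leave out the spread between them. These ratios, their intervals and the fit are a description, because the gene entered batch 2 through the treated libraries alone. The log2 fold changes of the fit were 4.43 ± 0.66 and 4.32 ± 0.67 (SE). They were 8.06 and 7.95 without the first DMSO library, which held all 4 DMSO counts. In batch 1 the counts were 68, 48 and 72 with adenosine, against 3, 65 and 16 with DMSO. The second DMSO library lay within the adenosine range on the CPM scale (4.57 CPM, against 2.77 to 4.39 CPM with adenosine), and the log2 fold change of 0.96 ± 0.76 did not pass (adjusted p = 0.341). Without that library it was 2.63 (adjusted p = 0.0144).

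Bbc3, encoding PUMA, a strong activator downstream of p53, did not pass in any comparison. It had 13, 12 and 24.5 CPM with adenosine, against 21.7, 22.3 and 31.7 CPM with DMSO in batch 1 (log2 fold change -0.61 ± 0.27 SE, edgeR adjusted p = 0.094). The batch 2 libraries had 14.9, 7.6 and 8.22 CPM with adenosine and 16.1, 14.8 and 17.5 CPM with AMP, against 12.2, 14.8 and 14.5 CPM with DMSO, giving -0.44 ± 0.22 (adjusted p = 0.0799) with adenosine and 0.22 ± 0.21 (adjusted p = 0.364) with AMP. These calls turned on 1 high adenosine library in each batch. The fall was called at -1.03 without adenosine library 3 of batch 1 (adjusted p = 0.00862) and at -0.81 without adenosine library 1 of batch 2 (adjusted p = 0.000846). In batch 1 it was also called at -0.66 with no filter on low counts and with the replicate number as a block. With library totals the AMP value was 0.49 and was called (adjusted p = 0.0382).

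Bid links the death receptors to mitochondria once caspase 8 has cut its protein. It had 52.1, 60.2 and 48.5 CPM with adenosine, against 39.9, 68.7 and 54.1 CPM with DMSO in batch 1, with full overlap (log2 fold change -0.02 ± 0.18 SE, edgeR adjusted p = 0.955). Batch 2 gave 39.6, 42.5 and 48.3 CPM with adenosine and 59.2, 62.1 and 54.7 CPM with AMP, against 62.5, 63.7 and 57.1 CPM with DMSO. It fell by 0.49 ± 0.10 with adenosine (adjusted p = 0.000291), and its value with AMP was -0.06 (95% interval -0.26 to 0.14, adjusted p = 0.605). With library totals the adenosine value was -0.18 and was not called. Its exons share 17.7% of their bases with Bcl2l13 on the opposite strand, which itself fell by 0.70 ± 0.08 with adenosine (adjusted p = 8.92e-07) and by 0.59 ± 0.08 with AMP (adjusted p = 6.89e-06).

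**Figure D2:**
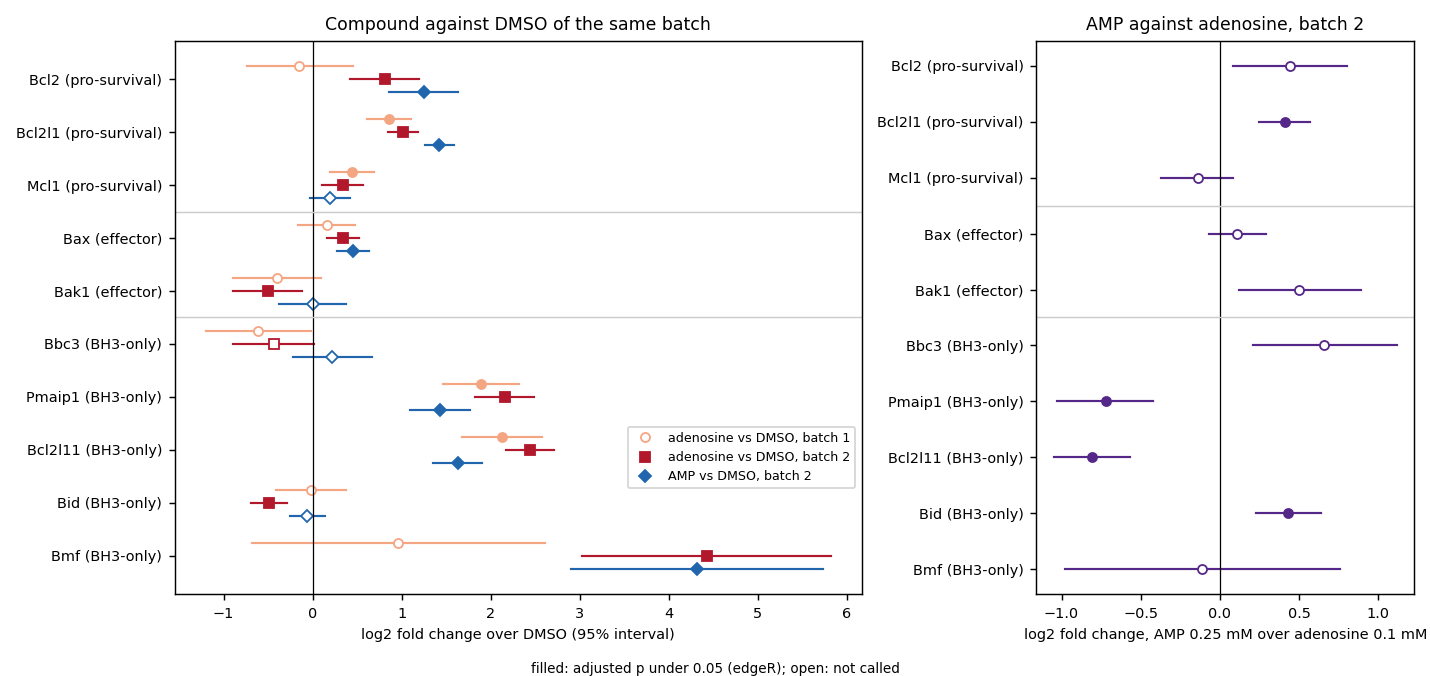
Log2 fold changes of the 10 members with 95% intervals from edgeR; the left panel sets each compound against DMSO of its batch, the right panel sets AMP 0.25 mM against adenosine 0.1 mM, and filled symbols passed an adjusted p of 0.05. Bcl2l11, Pmaip1 and Bcl2l1 lie to the right of 0 in all 3 DMSO comparisons; against adenosine, AMP gives a higher Bcl2l1 (0.41) and a lower Bcl2l11 (-0.81).

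AMP at 0.25 mM and adenosine at 0.1 mM were compared directly in batch 2, and since the doses differ this sets these dosed groups side by side and not the molecules at an equal dose. Of the 10 members, 2 were higher with AMP, 2 were lower and 6 did not pass, a share of 40% called where 6.51% of 13063 genes passed (4.52% higher and 2% lower). The 2 groups did not overlap for 6 members, where 23.6% of all genes did not. Bcl2l11 averaged 23.6 ± 2.1 CPM with AMP and 41.4 ± 2.7 CPM with adenosine (SD, n = 3 each), a log2 difference of -0.81 ± 0.11 (SE; edgeR adjusted p = 0.000517). Pmaip1 averaged 25.4 ± 5.58 CPM with AMP and 42 ± 2.08 CPM with adenosine (-0.72 ± 0.14, adjusted p = 0.00579). Both BH3-only genes thus stood between DMSO and adenosine, with no overlap of libraries.

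In the other direction, Bcl2l1 averaged 174 ± 11.1 CPM with AMP and 131 ± 9.26 CPM with adenosine (log2 difference 0.41 ± 0.07 SE, edgeR adjusted p = 0.00328). Bid averaged 58.7 ± 3.71 CPM with AMP and 43.5 ± 4.43 CPM with adenosine (0.43 ± 0.10, adjusted p = 0.0119), a call that was lost without AMP library 2 (0.39, adjusted p = 0.0525). Bmf differed by -0.11 (95% interval -0.98 to 0.76), Bax by 0.11 (-0.07 to 0.29) and Mcl1 by -0.14 (-0.37 to 0.08), none of which passed. Bbc3 was higher with AMP in each library than the adenosine mean (log2 difference 0.66 ± 0.21), which missed the threshold (adjusted p = 0.0796). It was called without adenosine library 1 (1.03, adjusted p = 0.00295), with the replicate number as a block (0.68) and with DESeq2 (0.65). Bak1 (0.50 ± 0.18, adjusted p = 0.12) and Bcl2 (0.44 ± 0.17, adjusted p = 0.151) lay higher with AMP with no overlap of libraries but did not pass.

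The adenosine effect in batch 2 at 0.1 mM was then set against that in batch 1 at 0.05 mM in a fit of all 15 libraries. No member passed in edgeR, where 11.9% of 13060 genes did (6.27% higher and 5.64% lower). At an unadjusted p under 0.05 there were 3, and DESeq2 called 2. Bmf is counted in both, though it entered batch 2 through the treated libraries alone. Its difference of 3.49 (95% interval 0.84 to 6.13, edgeR adjusted p = 0.0789) is therefore a description. Bcl2 differed by 0.96 (0.27 to 1.66, adjusted p = 0.0666) and Bid by -0.47 (-0.92 to -0.02, adjusted p = 0.157). For Bcl2l11 the difference was 0.32 (-0.15 to 0.79), for Pmaip1 0.28 (-0.24 to 0.79) and for Bcl2l1 0.16 (-0.10 to 0.42). Dose and batch cannot be told apart in these values.

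Pro-survival and pro-death members were also compared as sums of FPKM within each library. The pro-survival sum was 74.5, 72.4 and 69.2 FPKM with adenosine, against 45.5, 45.7 and 46.6 FPKM with DMSO in batch 1. For batch 2 the sum was 81.8, 77.9 and 77.5 FPKM with adenosine and 90.4, 88.1 and 72 FPKM with AMP, against 51.6, 55.5 and 53.8 FPKM with DMSO. Every treated library stood above every DMSO library of its batch. Most of the gain lay in Bcl2l1: Mcl1 made up 38.9% ± 2.29 of the sum with adenosine, against 45.3% ± 2.1 with DMSO in batch 1 (SD, n = 3 each), and in batch 2 62.8% ± 2.38 with adenosine and 53.3% ± 3.69 with AMP, against 72.8% ± 0.972 with DMSO.

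The effector sum, nearly all of it Bax, was 671 ± 51.6 FPKM with adenosine, against 607 ± 135 FPKM with DMSO in batch 1. In batch 2 that sum was 402 ± 17.7 FPKM with adenosine and 431 ± 48.8 FPKM with AMP, against 318 ± 14.8 FPKM with DMSO. The BH3-only sum was 44.7 ± 4.32 FPKM with adenosine, against 33.5 ± 4.44 FPKM with DMSO in batch 1. In batch 2 it was 38.7 ± 1.7 FPKM with adenosine and 37.2 ± 1.67 FPKM with AMP, against 28.3 ± 0.912 FPKM with DMSO. The make-up of that sum is described by Pmaip1, Bcl2l11 and Bmf, the BH3-only members that rose in batch 2. Their larger share with treatment follows from how they were grouped and is a description. Pmaip1, Bcl2l11 and Bmf together held 48.7% ± 1.52 of it with adenosine, against 17.9% ± 4.24 with DMSO in batch 1. In batch 2 they held 55.5% ± 2.53 with adenosine and 34.5% ± 3.8 with AMP, against 15.8% ± 1.47 with DMSO, and Bid and Bbc3 held the rest.

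Ratios within a library do not depend on its scaling. The effector sum in them is Bax and Bak1 alone, without Bok, which was lower with treatment in both batches. Ratios with Bok included were not computed. The log2 ratio of the pro-survival sum to the effector sum was -3.22 ± 0.06 with adenosine, against -3.70 ± 0.29 with DMSO in batch 1, a difference of 0.48 with no overlap. In batch 2 it was -2.34 ± 0.10 with adenosine, against -2.57 ± 0.10 with DMSO, a difference of 0.22 with no overlap. With AMP it was -2.37 ± 0.27, a difference of 0.20 from DMSO with overlapping libraries. Without Mcl1 the differences were 0.64, 0.67 and 0.98 for adenosine in batch 1, adenosine in batch 2 and AMP. The single pair Bcl2l1 over Bax was higher by 0.68 with adenosine in batch 1, by 0.67 with adenosine in batch 2 and by 0.98 with AMP than with DMSO, and no libraries overlapped. Between the dosed groups of batch 2 that pair was 0.31 higher with AMP than with adenosine, again with no overlap. The pro-survival sum over the BH3-only sum differed from DMSO by 0.23, 0.11 and 0.24, with overlap each time. No test was made on these sums over chosen genes.

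**Figure D3:**
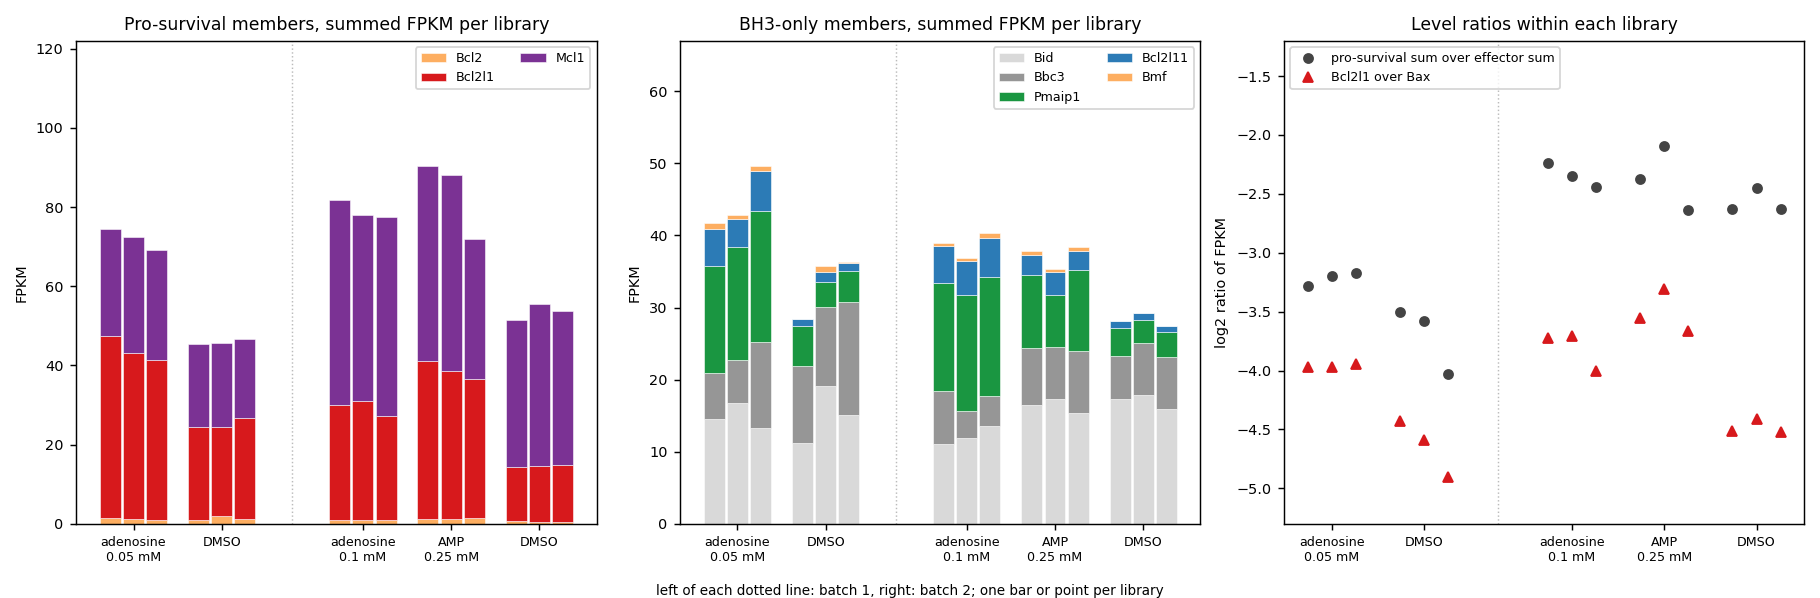
Summed FPKM of the pro-survival members (left) and of the BH3-only members (middle), stacked by gene with a bar per library, and log2 level ratios in each library (right). Pmaip1 and Bcl2l11 fill a larger part of the BH3-only bars in treated libraries (48.7% with Bmf in adenosine, against 17.9% in DMSO of batch 1), and Bcl2l1 over Bax is higher in every treated library than in DMSO of its batch. These BH3-only members were grouped because they rose in these data, so their larger share is a description.

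Beyond the 10 members, the other BCL2 relatives moved in both directions. Of 9 tested in batch 1, 1 rose and 4 fell with adenosine; of 8 tested in batch 2, 3 rose and 4 fell with adenosine, and 2 rose and 3 fell with AMP. The share called was 55.6%, 87.5% and 62.5% of those tested, beside 39.2%, 69.4% and 65.6% of all genes. Their median log2 fold changes were -0.31, -0.34 and -0.05 in these 3 comparisons, the order kept for other genes and lists from here on. Bok, an effector relative of BAX and BAK, had 33.1, 38.4 and 20.9 CPM with adenosine, against 127, 90.5 and 94 CPM with DMSO in batch 1, and fell by 1.75 ± 0.21 (SE; edgeR adjusted p = 4.75e-05). In batch 2 it fell by 2.15 ± 0.15 with adenosine (adjusted p = 6.16e-09) and by 1.84 ± 0.15 with AMP (adjusted p = 4.04e-08). Bnip3l, a mitophagy receptor, rose by 0.61, 1.13 and 1.07 in the 3 comparisons. Bcl2l2, the pro-survival BCL-W, rose by 0.95 ± 0.20 with adenosine (adjusted p = 0.000655) and by 0.63 ± 0.21 with AMP (adjusted p = 0.015) in batch 2, while its batch 1 value was -0.31 ± 0.22 (adjusted p = 0.297). Bad, a BH3-only gene, did not pass in any of the 3 comparisons (-0.21, -0.01 and -0.23).

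Downstream of the mitochondrion, the list of apoptosome genes, caspases and their inhibitors had 5 of 17 higher and 2 lower in batch 1, 7 higher and 6 lower with adenosine in batch 2, and 5 higher and 6 lower with AMP (medians 0.09, 0.13 and 0.12). The share called was 41.2%, 76.5% and 64.7%, near the 39.2%, 69.4% and 65.6% of all genes. Birc5 (survivin), an inhibitor of apoptosis that also serves cell division, fell by 5.39 ± 0.44, 3.83 ± 0.37 and 3.79 ± 0.37 (SE; edgeR adjusted p = 2.66e-06, 2.22e-07 and 3.67e-07). Birc2, the ubiquitin ligase cIAP1, rose by 0.74, 1.24 and 1.12, and Endog, a mitochondrial nuclease, by 0.99, 0.89 and 0.80. Of 10 channel and contact proteins of the membrane, 1 rose and 1 fell in batch 1, 3 rose and 3 fell with adenosine in batch 2, and likewise 3 and 3 with AMP (medians 0.25, 0.23 and 0.12; 20%, 60% and 60% called, below the share of all genes). The porin Vdac1 fell by 0.39, 0.60 and 0.66, and Tmbim6, a BAX inhibitor of the endoplasmic reticulum, rose by 0.31, 0.47 and 0.33.

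Of 10 tested death receptor pathway genes, 2 rose and none fell in batch 1, 4 rose and 3 fell with adenosine in batch 2, and 5 rose and 2 fell with AMP (medians 0.18, 0.12 and 0.18; 20%, 70% and 70% called, beside 39.2%, 69.4% and 65.6% of all genes). The receptor gene Tnfrsf10b rose by 0.84, 0.47 and 0.46. Casp8, whose product cuts BID, fell by 0.89 ± 0.11 with adenosine (edgeR adjusted p = 4.75e-06) and by 0.73 ± 0.11 with AMP (adjusted p = 4.59e-05) in batch 2, beside -0.07 ± 0.20 in batch 1 (adjusted p = 0.813).

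Among transcription factors known to act on these genes, 5 of 17 rose and 6 fell in batch 1; of 16 tested in batch 2, 7 rose and 7 fell with adenosine, and 8 rose and 6 fell with AMP (medians -0.01, -0.08 and 0.25; 64.7%, 87.5% and 87.5% called, beside the same shares of all genes). Atf3, a stress-induced factor, rose by 3.19 ± 0.23, 4.25 ± 0.28 and 3.56 ± 0.28 (SE; edgeR adjusted p = 1.03e-06, 3.17e-09 and 3.58e-08). Ddit3 (CHOP), known to raise Bim in stressed cells, rose by 1.75, 2.30 and 1.86. Atf4, which lies upstream of Ddit3 in the stress response, fell by 0.76, 1.32 and 0.92, and the cell cycle factor E2f1 fell by 3.03, 1.61 and 1.63. The list of other p53 target genes, which shares Fas and Tnfrsf10b with the death receptor list and Apaf1 with the apoptosome list, had 9 of 15 higher and 3 lower in batch 1, 9 higher and 4 lower with adenosine in batch 2, and 11 higher and 3 lower with AMP. Its median log2 fold change was 0.63, 0.45 and 0.54. Of its genes 80%, 86.7% and 93.3% were called, beside 39.2%, 69.4% and 65.6% of all genes. Trp53inp1 rose by 1.75, 2.71 and 2.37, while Pidd1 fell by 1.51, 1.13 and 0.85. Perp rose by 1.71 in batch 1. Its batch 2 counts were 20, 28 and 64 with adenosine and 25, 9 and 22 with AMP, against 4, 0 and 1 with DMSO. Like Bmf it passed the count filters there only through the treated libraries and so had to differ. Its batch 2 values of 4.16 and 3.31 are a description, and it is among the p53 targets counted as higher there. Of 12 tested regulators of the BCL2 proteins, 3 rose and 1 fell in batch 1. With adenosine in batch 2, 6 rose and 3 fell, and with AMP 5 rose and 2 fell. Their medians were -0.14, 0.29 and 0.18. The share called was 33.3%, 75% and 58.3%, near the 39.2%, 69.4% and 65.6% of all genes. Mapk8 (JNK1), which can release BIM and BMF from their anchors, rose by 0.86, 0.79 and 0.70. Pim1, a kinase that phosphorylates BAD, rose by 1.73 in batch 1. Its batch 2 counts were 55, 47 and 51 with adenosine and 38, 41 and 44 with AMP, against 8, 12 and 5 with DMSO. It reached the batch 2 floor of 101 counts in all through the treated libraries, so its values of 2.34 and 2.17 there are a description.

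**Figure D4:**
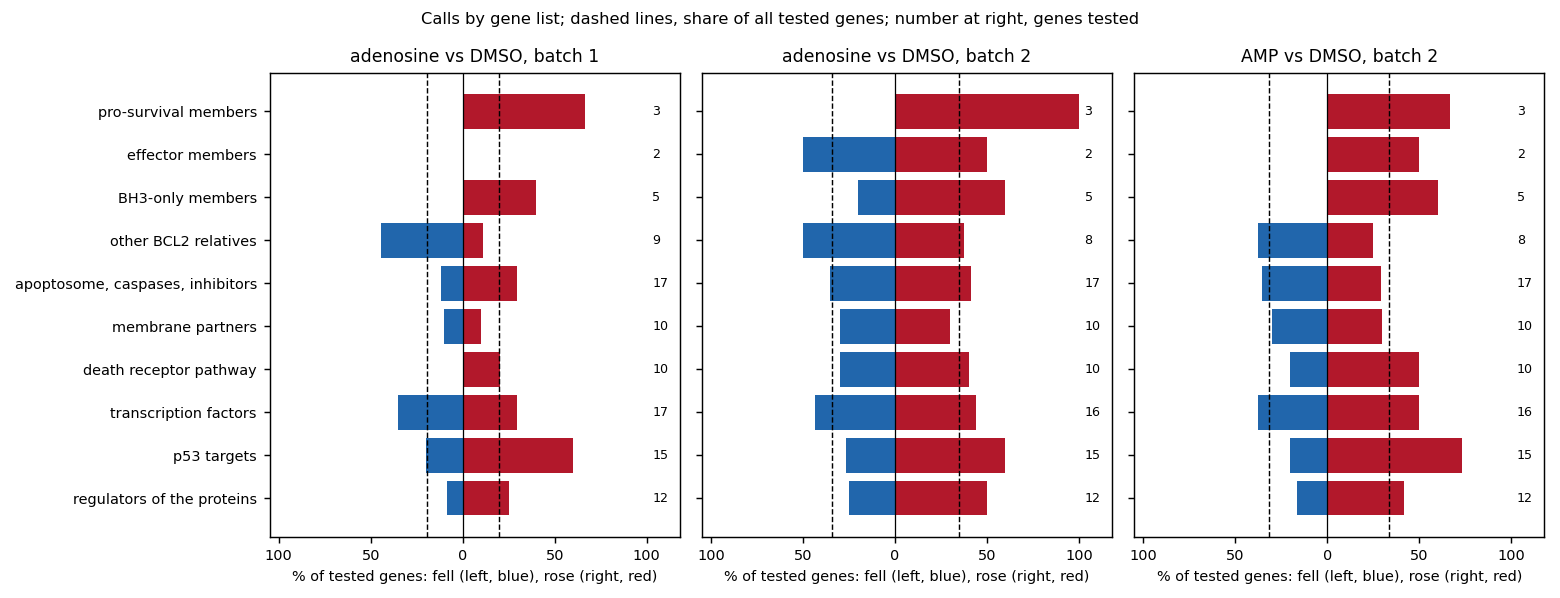
Share of tested genes of each list that rose (right, red) or fell (left, blue) in the 3 comparisons with DMSO, with the number tested at the right and dashed lines for the share over all genes. The bar of p53 targets that rose reaches 9 of 15 genes with adenosine in both batches, and the 3 pro-survival members all rose with adenosine in batch 2. In batch 2 the p53 targets that rose include Perp, which passed the count filters only through the treated libraries.

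The genes whose pattern over the 15 libraries, centred on DMSO of each batch, was most like that of Bmf were Cwc25 and Washc5 (Pearson r = 0.96 each) and Cab39 (0.95), out of 8737 genes averaging 10 CPM or more. For Bcl2l11, added after its values were seen, they were Mrpl10, Aplp2 and Aggf1 (0.99 each). Among the members, Bcl2l11 was most like Pmaip1 (0.97) and Mcl1 (0.94), and near 0 with Bid (0.06) and Bbc3 (-0.16). These correlations used CPM scaled to the library total, without TMM factors. Those factors were lower in every DMSO library than in the treated ones, so the r values also hold that difference in scaling. The correlations span treated and DMSO libraries, so they describe the shared response and library make-up and are given without a test.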

How the data were processed

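Full-length cDNA was made by Smart-Seq2 and fragmented with Tn5, per the labels' protocols. The authors deposited raw counts per gene and FPKM for each batch; tools were Trim Galore, STAR, featureCounts (Subread) and DESeq2 with mm10, per the submitters' processing notes. Batch 1 counts came from featureCounts 1.6.4, paired and unstranded on an Ensembl GRCm38 annotation, per the file headers; for batch 2 these settings are not stated in what was used here. The batch 2 table held no gene with under 101 counts in all, and its 43 lines without a gene (0.0589% of counts) were left out. Deposited FPKM equalled counts over the deposited gene length times a constant of each library, within 1% for 100% of genes with enough counts, in both batches.

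Counts were tested with edgeR 4.0.16 (R 4.3.3; TMM, filterByExpr by group, two-sided quasi-likelihood F test, p adjusted by Benjamini-Hochberg over all genes tested). Batch 1 was fitted on its 6 libraries, batch 2 on its 9 together, and the difference between batches on all 15 over genes in both tables. SE is the log2 change divided by the root of its F value. DESeq2 1.42.0 and limma 3.58.1 served as alternatives. On simulated counts with 200 changed genes the fit recovered 64.5% of 2-fold changes for batch 1 adenosine and 75.8% for batch 2 adenosine. In the data 39.2% and 69.4% of genes were called in these comparisons, so the recovery rates may not hold there. Replicates differed by more than counting noise (chi-square 3.54 to 34.4 per degree of freedom).

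The members and lists were chosen with earlier results of these data known. All members are named; of other lists, up to 4 genes passing in both batch 2 comparisons with DMSO, by the size of the adenosine change, and any tested relative of the family. A gene that this rule names is not reported here. Pmaip1 is given without a sequence.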

Additional observations from a re-analysis of the deposited data

Results flagged for a closer look

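Of 95 listed genes tested between batches, the adenosine effect differed in 12 by the test of the difference in edgeR (log2, batch 2 at 0.1 mM minus batch 1 at 0.05 mM), a share of 12.6% that is close to the 11.9% of all genes called there. None of the 12 is one of the 10 members. It was higher in batch 2 for E2f1 (1.42), Bcl2l2 (1.27), Foxo1 (0.98), Trp53inp1 (0.97), Foxo3 (0.95), Nfkb1 (0.75), Dynll1 (0.63), Egr1 (0.54) and Bnip3l (0.53). It was lower for Casp8 (-0.82), Atf4 (-0.56) and Trp53 (-0.47). Foxo1 and Foxo3, factors known to act on Bcl2l11, rose in batch 2 by 1.03 and 0.94, beside 0.06 and -0.01 in batch 1. Dynll1, which anchors BIM, rose in batch 2 by 0.61, beside -0.02 in batch 1. Dose and batch changed together, so they cannot be told apart here. Groups of 3 libraries were not tested for single outlying values.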

How the results depend on the processing

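Of 832 values of single members under other settings, 779 kept their direction and side of the threshold, 26 turned sign (none of them called in the reported fit), 21 gained a call and 6 lost one. Scaling by library totals put the all-gene median at log2 values of 0.225, 0.323 and 0.279 for adenosine in batch 1, adenosine in batch 2 and AMP, and the split of genes called higher and lower at 4030 and 1948 (against 2714 and 2706), 6344 and 2891 (against 4559 and 4508) and 6037 and 2605 (against 4405 and 4159). Under it 7 members rose and none fell with adenosine in batch 2, and 8 rose with AMP. It turned Bcl2 (0.046) and Bid (0.18) in batch 1, Bak1 (0.27) and Bid (0.21) with AMP, and Mcl1 (0.01) and Bak1 (0.0035) in the difference between batches.

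With genes of at least 10 CPM alone, Bid in batch 1 was 0.00014, and with AMP Bak1 was 0.071 and Bid 0.013. Bid in batch 1 was 0.0012 in limma on log2(FPKM + 0.1). Bak1 with AMP was 0.0072 on the 6 libraries of its groups alone. Leaving out 1 library at a time gave ranges of -0.36 to 0.14 for Bcl2 in batch 1, -0.21 to 0.18 for Bid in batch 1, -0.11 to 0.14 for Bak1 with AMP, -0.22 to 0.0047 for Mcl1 between AMP and adenosine, -0.26 to 0.16 for Bmf in the same comparison, -0.019 to 0.3 for Bax, -0.25 to 0.038 for Bak1 and -0.19 to 0.6 for Bbc3 in the difference between batches.

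AMP against adenosine had 851 genes called, but 546 in limma on log2(FPKM + 0.1) and 408 to 991 with 1 library left out, the lowest without adenosine library 3. The difference between batches had 1556 genes called, and 898 to 2063 with 1 library left out, the lowest without DMSO library 2 of batch 2. For the members it called 0, but 1 with library totals, 1 with at least 10 CPM, 2 with DESeq2 and 0 to 2 with 1 library left out. Bcl2 was called there with library totals (1.08), with at least 10 CPM (1.02), with DESeq2 (0.97), without adenosine library 1 (1.15) and without DMSO library 1 of batch 1 (1.17). Bmf was called with DESeq2 (3.64) and without DMSO library 1 of batch 1 (4.06), but it entered batch 2 through the treated libraries alone. Bid was called without DMSO library 2 of batch 1 (-0.66).

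The pro-survival to effector ratio moved to 0.67 and 0.98 with Mcl1 left out and to 0.80 and 0.73 as a mean of log2 values, for adenosine in batch 2 and AMP. Between AMP and adenosine it turned from -0.03 to 0.30 with Mcl1 left out, and ranged from -0.16 to 0.11 with 1 library left out; it ranged from 0.06 to 0.33 for AMP against DMSO, the lowest without AMP library 2.

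Libraries were treated as unpaired, since not every same-numbered pair correlated by over 0.1: deviations of same-numbered libraries correlated by -0.026 to 0.088 in batch 1 and by -0.073 to 0.30 in batch 2, and 3 of 6 and 10 of 18 correlated best with their own number. In batch 2 the data give a hint of shared numbers: the median correlation was 0.11 for the same number and -0.0685 for different numbers, and Myog and Acta1 were highest in library 2 of all 3 groups. With the replicate number as a block, 5, 9, 6, 5 and 0 members were called (against 4, 9, 6, 4 and 0) in the order batch 1, adenosine in batch 2, AMP, AMP against adenosine and the difference between batches, and Bid in batch 1 was 0.0098; the added calls were Bbc3 (-0.66 and 0.68). Low counts limit Bmf, and causes of the changes named here were not tested.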
